A study of Ovis aries with 8 samples.

Results

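The thyrotropin-releasing hormone (TRH) and corticotropin-releasing hormone (CRH) systems were examined in the mediobasal hypothalamus of the ewe through 7 genes, chosen by symbol: TRH and its receptor TRHR, and the CRH ligands CRH and UCN3 with the binding protein CRHBP and the receptors CRHR1 and CRHR2. All 7 had a row among the 33609 genes of the count table. Adult Ile-de-France ewes were either food-restricted or fed ad lib (the well-fed group), with 60 ewes per group over 2 years. Equal amounts of RNA from 15 ewes, drawn at random, were mixed into each pool, which gave 4 food-restricted and 4 well-fed pools, and n counts pools throughout. The labels give no degree or length of the restriction and no year for a pool. They leave unsaid if a given ewe could be in several pools, so the p-values measure only the spread between these mixes.

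TRH is a tripeptide cut from a larger precursor. It is released by neurons of the paraventricular nucleus at the median eminence and drives thyrotropin secretion from the pituitary, and fasting is known to lower its transcript in paraventricular neurons of rodents. CRH, from neighbouring paraventricular neurons, drives corticotropin secretion and so the release of glucocorticoids from the adrenal. Both peptides are also made in other hypothalamic areas, where they reduce feeding when given into the brain.

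Total counts lay between 36192025 and 48125991 per pool, and 18193 genes had enough reads to be tested. The pools differed from each other in a way that the feeding groups do not describe. On the first principal component (PC1) of log2 CPM, which are read counts scaled to library size, and with 34.7% of the variance, food-restricted pools 1 and 2 and well-fed pools 3 and 4 lay below 0 and the other 4 pools lay above 0. The same pools fell on each side when the members and all list genes were left out. This split is used here to describe the members' values and as a block in an alternative fit, and no label explains it. The arcuate markers AGRP, NPY, POMC, CARTPT, GHRH, TAC3, KISS1 and TBX3 had a summed level of 642 to 1030 CPM in food-restricted and 451 to 1090 CPM in well-fed pools. That sum includes AGRP, at means of 155 and 50.7 CPM, and NPY, at 141 and 59.8 CPM. Both were higher in every food-restricted than in every well-fed pool, where 1.6% of all tested genes did not overlap in either direction. The paraventricular markers SIM1, OTP, POU3F2, AVP, OXT and NTNG1 summed to 112 to 349 and 86.4 to 303 CPM, so markers of both areas were detected. These sums do not show from which area the TRH and CRH reads came. Pituitary and pars tuberalis markers summed to 1540 to 1880 and 1150 to 2340 CPM, ventromedial markers to 177 to 240 and 177 to 258 CPM, and lateral hypothalamic markers to 252 to 447 and 276 to 383 CPM. Tanycyte markers summed to 1330 to 1460 and 1280 to 1540 CPM, and markers of thalamus and forebrain to 55.7 to 64.4 and 53.1 to 60.5 CPM. No marker was at 0 in all pools.

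No gene of the TRH and CRH systems passed the test for a response to food restriction. Of the 7 genes, 5 had enough reads to be tested, and 0 of these 5 passed over all genes (edgeR quasi-likelihood, adjusted p = 1 for each), where 0.0055% of all tested genes passed. None of the 5 had an unadjusted p under 0.05, and DESeq2 and limma voom likewise called 0. The feeding groups overlapped in all 5 genes, against no overlap in 1.6% of all tested genes. TRH was above 0 in log2 fold change and the other 4 were below, with a median of -0.13 beside a median of 0.01 over all tested genes. The remaining genes, TRHR and UCN3, had too few reads to be tested.

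**Figure D1:**
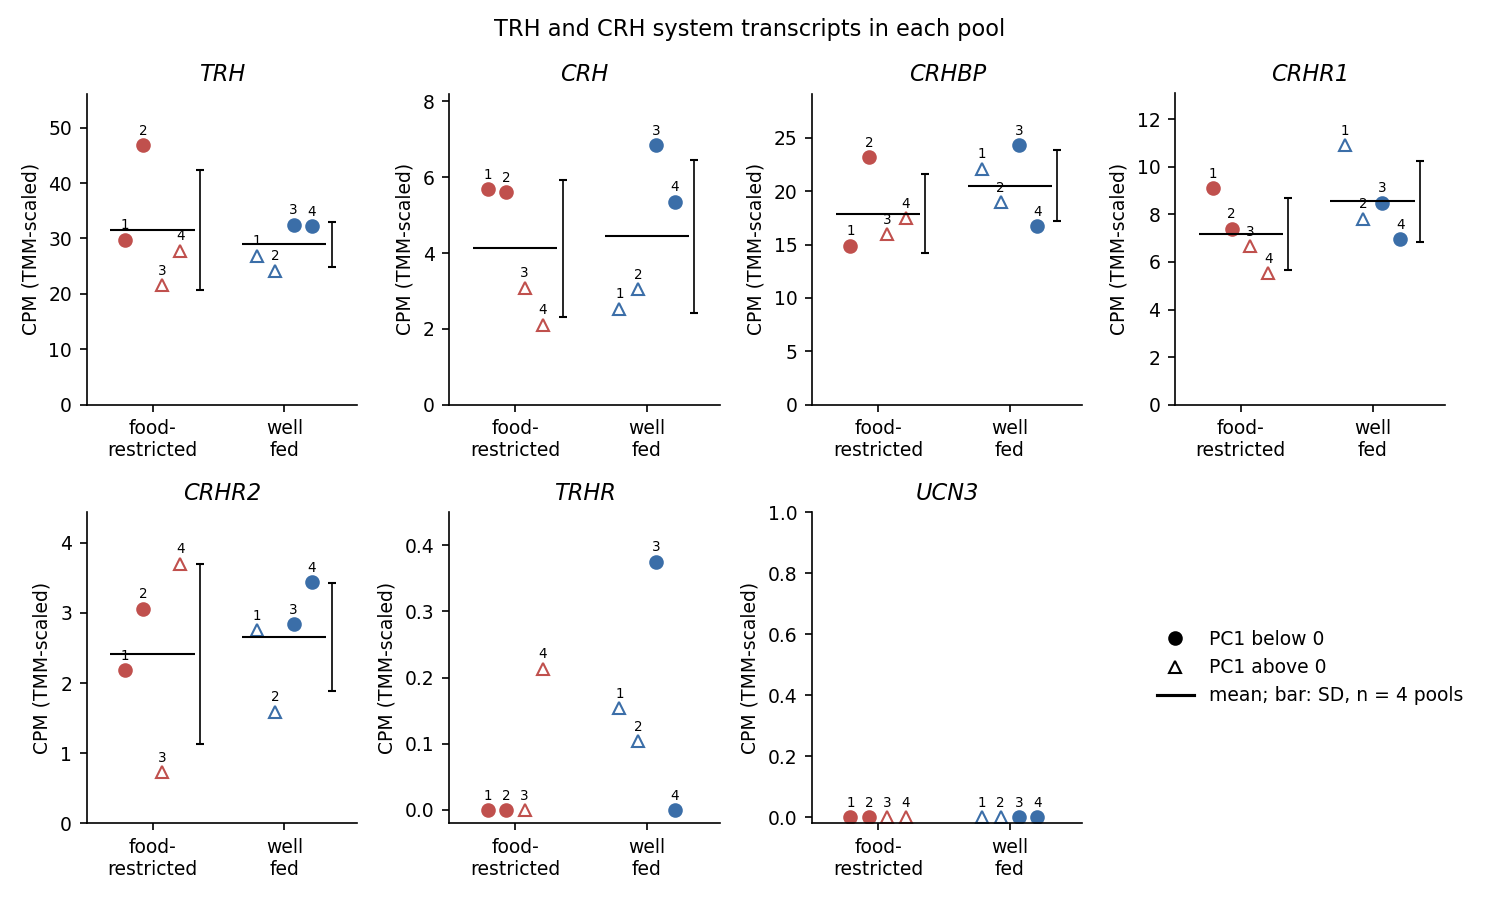
TMM-scaled CPM of each gene in each pool (points, numbered by pool), with filled circles for pools below 0 and open triangles for pools above 0 on PC1. Lines give the group mean and bars the SD over 4 pools, left out for TRHR and UCN3. The feeding groups overlap in every panel, while all CRH circles (5.35 to 6.84 CPM) lie above all CRH triangles (2.11 to 3.08 CPM).

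TRH (gene ID 101122470), the precursor of the releasing hormone, was at 29.8, 46.8, 21.6 and 27.8 CPM in food-restricted pools 1 to 4. In well-fed pools 1 to 4 it was at 26.9, 24.2, 32.5 and 32.2 CPM. Food-restricted pool 2 held the highest value and food-restricted pool 3 the lowest, so the well-fed pools lay inside the range of the food-restricted ones. The means were 31.5 ± 10.8 CPM with food restriction and 28.9 ± 4.09 CPM in well-fed pools (SD, n = 4 each). The log2 fold change was 0.12 (SE 0.22), with a 95% interval from -0.36 to 0.61, or from 0.778-fold to 1.52-fold. The exact two-sided permutation p for log2 CPM was 0.857, where the smallest p that 4 pools against 4 allow is 0.0286. Without food-restricted pool 2 the log2 fold change was -0.12 (SE 0.17), so the sign of the difference rested on that pool. In bulk tissue, fewer TRH cells and less TRH transcript per cell cannot be told apart.

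TRHR (gene ID 443425), the receptor that couples TRH to calcium release, was close to the limit of detection. In food-restricted pools 1 to 3 it had 0 reads, and in pool 4 it had 9. In well-fed pools 1 to 4 it had 7, 4, 18 and 0 reads. A count of 0 was taken to allow up to 3 reads, which is 0.0625 to 0.0845 CPM in these libraries. The exact Poisson interval of a 0 reaches 3.69 reads. The most in any pool was 0.375 CPM. The 9 reads of food-restricted pool 4 have an exact Poisson interval of 4.12 to 17.1 reads, and the 18 of well-fed pool 3 one of 10.7 to 28.4, both covering counting error only. With no filter on low counts, the edgeR log2 fold change of TRHR was -1.54 (SE 1.65), with an unadjusted p of 0.369 and an adjusted p of 0.999. At this depth no difference in TRHR between the feeding groups was detected.

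CRH (gene ID 101121525), the releasing hormone of the stress axis, was at 5.69, 5.60, 3.08 and 2.11 CPM in food-restricted pools 1 to 4. In well-fed pools 1 to 4 it was at 2.53, 3.04, 6.84 and 5.35 CPM. Each feeding group thus held a pair of pools at 5.35 CPM or more and a pair at 3.08 CPM or less. The means were 4.12 ± 1.81 CPM with food restriction and 4.44 ± 2.02 CPM in well-fed pools (SD, n = 4 each). The log2 fold change was -0.11 (SE 0.40), with a 95% interval from -0.98 to 0.77, or from 0.506-fold to 1.70-fold, and the exact two-sided permutation p was 0.8. The SD was 43.8% of the mean in food-restricted and 45.4% in well-fed pools. These values rest on 89 to 328 reads per pool. The exact Poisson interval was 110 to 157 for the 132 reads of food-restricted pool 3 and 164 to 219 for the 190 reads of well-fed pool 4, which stand on either side of the gap in CPM, and it covers counting error only.

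UCN3 (gene ID 101106349), urocortin 3, a CRH relative that acts through CRHR2, was listed at 0 reads in all 8 pools, and no fold is given. The 0 was taken to allow up to 3 reads per library, as for TRHR. It was 1 of 10254 genes at 0 in every pool. SST, somatostatin, a peptide known from this tissue and named after its values were seen, was listed at 0 in all 8 pools too. Whether the UCN3 row reflects the transcript or the assignment of reads was not tested.

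CRHBP (gene ID 443354), a secreted protein that binds CRH and keeps it from its receptors, was at 14.9, 23.2, 16.0 and 17.5 CPM in food-restricted pools 1 to 4. In well-fed pools 1 to 4 it was at 22.1, 19.0, 24.3 and 16.7 CPM. The highest pool and the lowest pool of the 8 were a well-fed and a food-restricted pool, with overlap between. The means were 17.9 ± 3.67 and 20.5 ± 3.36 CPM (SD, n = 4 each). Its log2 fold change was -0.20 (SE 0.18), with a 95% interval from 0.662-fold to 1.15-fold (exact two-sided permutation p = 0.314). Leaving out any 1 pool left the log2 fold change of CRHBP between -0.33 and -0.09.

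CRHR1 (gene ID 443025), the receptor with high affinity for CRH, was at 9.11, 7.40, 6.67 and 5.53 CPM in food-restricted pools 1 to 4. In well-fed pools 1 to 4 it was at 10.9, 7.82, 8.49 and 6.96 CPM. The highest value was that of well-fed pool 1 and the lowest that of food-restricted pool 4. The means were 7.18 ± 1.5 and 8.55 ± 1.70 CPM (SD, n = 4 each). The log2 fold change was -0.25 (SE 0.21), with a 95% interval from 0.612-fold to 1.15-fold (exact two-sided permutation p = 0.286), and it lay between -0.38 and -0.11 with any 1 pool left out.

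CRHR2 (gene ID 101102228), the receptor preferred by the urocortins and known from the ventromedial nucleus, was at 2.18, 3.06, 0.723 and 3.70 CPM in food-restricted pools 1 to 4. In well-fed pools 1 to 4 it was at 2.75, 1.59, 2.84 and 3.44 CPM. Food-restricted pools thus held both the lowest and the highest value. The lowest rests on 31 reads (exact Poisson interval 21.1 to 44.0), against 61 to 156 in the other pools. The means were 2.42 ± 1.29 and 2.65 ± 0.773 CPM (SD, n = 4 each). Its log2 fold change was -0.13 (SE 0.45), with a 95% interval from 0.461-fold to 1.80-fold (exact two-sided permutation p = 0.714). Without food-restricted pool 3 the CRHR2 log2 fold change was 0.17 (SE 0.32), and without well-fed pool 4 it was 0.01 (SE 0.50). Summed levels of the ventromedial markers overlapped between the feeding groups, as given above.

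**Figure D2:**
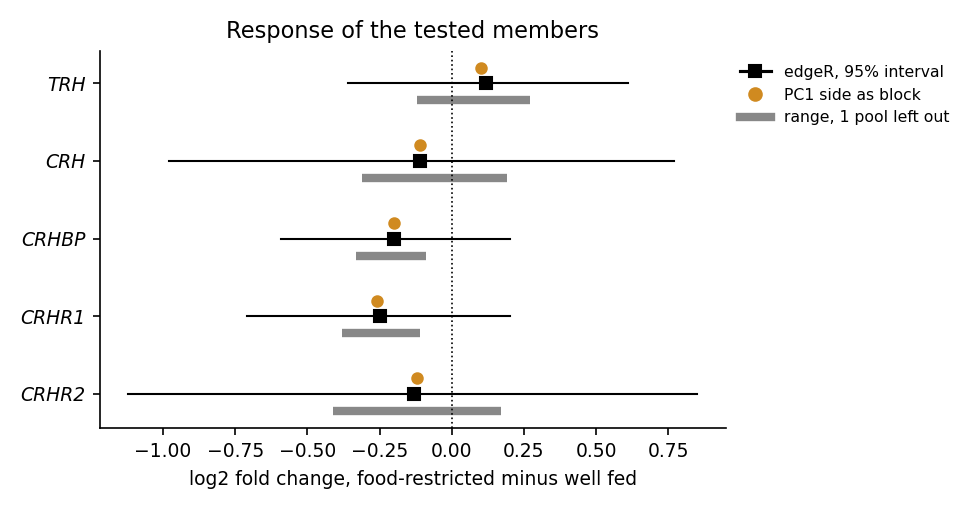
Log2 fold change (x axis, food-restricted minus well fed) of the 5 tested genes. Squares and black lines are the edgeR estimate and its 95% interval, orange circles the estimate with PC1 side as a block, and grey bars the range when 1 pool is left out. Every interval includes 0, and the grey bars of TRH, CRH and CRHR2 cross it.

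The widths of these intervals differed between the genes. The lower limits were 0.778-fold for TRH, 0.662-fold for CRHBP and 0.612-fold for CRHR1. The SEs of their log2 fold changes were 0.22, 0.18 and 0.21, so the interval of CRHBP was the narrowest. The intervals of CRH and CRHR2 reached 0.506-fold and 0.461-fold on the low side and 1.70-fold and 1.80-fold on the high side. For each tested gene, a change within its own interval is not excluded by these pools.

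CRH and TRH parted the pools along PC1, across the feeding groups. In the 4 pools with a PC1 score below 0, CRH was at 5.35 to 6.84 CPM, and in the 4 pools above 0 at 2.11 to 3.08 CPM, with means of 5.87 and 2.69 CPM or 2.18-fold. TRH was at 29.8 to 46.8 CPM in the pools below 0 and at 21.6 to 27.8 CPM in those above, with means of 35.3 and 25.1 CPM or 1.41-fold. CRHBP, CRHR1 and CRHR2 overlapped between the sides, at 1.06-fold, 1.03-fold and 1.32-fold. In all, 2 of the 5 tested genes did not overlap between the sides, both higher below 0, where 23.1% of all tested genes did not overlap and 14.2% were higher below 0. These are descriptions, with no test, because the split was itself made from these libraries.

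Within each side, the mean CRH levels of the feeding groups lay close together, while single pools ran from 5.35 to 6.84 CPM below 0 and from 2.11 to 3.08 CPM above. Below 0, the mean CRH of food-restricted pools was 0.927-fold that of well-fed pools, and above 0 it was 0.932-fold. TRH was 1.18-fold below 0 and 0.967-fold above 0, with the higher value resting on food-restricted pool 2. CRHR1 was 1.07-fold below 0 and 0.651-fold above 0, CRHBP 0.930-fold and 0.814-fold, and CRHR2 0.836-fold and 1.02-fold. Each of these values compares 2 pools with 2 and has no test. With the side as a block in edgeR, the SE of CRH was 0.22 and its 95% interval ran from 0.673-fold to 1.28-fold. The interval of TRH ran from 0.862-fold to 1.33-fold. Because the side was taken from these same libraries, these intervals are not an independent measure of precision. Neither gene passed (edgeR adjusted p = 0.992 and 0.991), and their adjusted p lay between 0.982 and 1 in all alternatives.

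The same values can be read as binding protein reads per hormone read, which adds no measurement to those above. CRHBP had 2.62 to 4.13 reads per CRH read in the 4 pools below 0 and 5.18 to 8.77 in the 4 pools above 0. The ratio depends on the lengths of both transcripts and is read here only between pools.

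A set of 15 other peptide genes in the lists was picked out after their values were seen. Of these, 6 were higher in all pools below 0 than in all pools above, 0 were the other way and 9 overlapped. Over all tested genes, 14.2% were higher below 0 in this way and 23.1% did not overlap in either direction. Because of how the set was picked, its count is only a description. UCN, urocortin 1, another ligand of both CRH receptors, had 22, 19, 18 and 18 reads in the pools below 0 and 0, 2, 1 and 1 in those above. AVP, vasopressin, which acts with CRH on the pituitary, was at 127 to 236 CPM below 0 and 26.4 to 72.2 CPM above. OXT, oxytocin, was at 15.0 to 52.7 CPM below 0 and 0.857 to 6.02 CPM above, and POMC, the corticotropin precursor, at 233 to 359 and 50.5 to 118 CPM. HCRT, orexin, was at 19.8 to 28.1 and 5.83 to 9.56 CPM, and ADCYAP1, the PACAP precursor, at 155 to 167 and 117 to 138 CPM. The 9 that overlapped were UCN2, AGRP, NPY, CARTPT, GHRH, TAC3, KISS1, PDYN and PMCH. PMCH had the higher mean above 0, at 335 against 232 CPM.

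The marker lists were also set beside the split. Of the 6 paraventricular markers, AVP and OXT were higher in all pools below 0, and the summed level of the list was 204 to 349 CPM below 0 and 86.4 to 140 CPM above. The other 4 did not part. OTP, a transcription factor needed for these neurons, was at 3.51 to 6.61 CPM below 0 and 1.73 to 3.87 CPM above, with means of 5.36 and 2.59 CPM or 2.07-fold. SIM1, another such factor, was at 4.67 to 5.99 and 3.87 to 9.31 CPM, POU3F2, which acts in the same lineage, at 14.9 to 20.5 and 18.7 to 23.6 CPM, and NTNG1 at 27.7 to 32.5 and 29.0 to 40.1 CPM. The means of SIM1, POU3F2 and NTNG1 below 0 were 0.769-fold, 0.899-fold and 0.886-fold those above. These 4 together summed to 53.5 to 62.5 CPM below 0 and 57.6 to 74.7 CPM above, so the gap in the list's sum lay in AVP and OXT. Most of the sum of 4 is NTNG1 and POU3F2, so it says little of OTP. Arcuate markers summed to 829 to 1090 CPM below 0 and 451 to 754 CPM above, with 1 of 8 (POMC) parted. That sum includes POMC, at 233 to 359 CPM below 0 and 50.5 to 118 CPM above, which is also on the pituitary list. The other arcuate markers each overlapped between the sides. Ventromedial markers summed to 213 to 258 and 177 to 198 CPM, with 3 of 5 parted. Pituitary and pars tuberalis markers overlapped in sum, at 1540 to 2340 and 1150 to 1870 CPM, but 4 of the 10 tested parted, among them PITX1, at 84.2 to 117 and 18.5 to 43.0 CPM, and LHB, at 50.5 to 117 and 8.55 to 33.1 CPM. Lateral hypothalamic markers overlapped in sum, at 252 to 347 and 317 to 447 CPM, with 1 of 5 (HCRT) parted. Sums of the tanycyte markers (1340 to 1480 and 1280 to 1540 CPM) and of thalamus and forebrain markers (59.0 to 61.1 and 53.1 to 64.4 CPM) overlapped, with none parted among those tested. All markers that parted were higher below 0, as were 14.2% of all tested genes. The part of these markers in the CRH and TRH values was not tested.

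**Figure D3:**
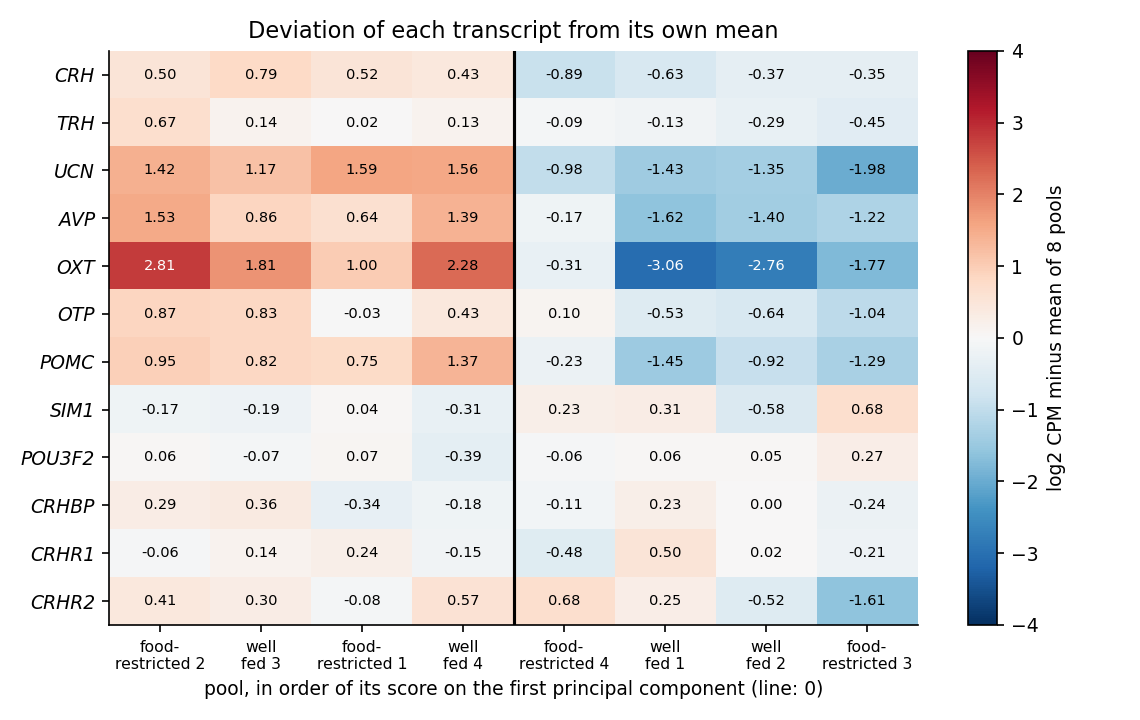
Log2 CPM of each gene minus its mean over 8 pools (colour and printed value), with pools in order of their PC1 score and a line at 0. CRH is above its mean in the 4 pools to the left (0.43 to 0.79) and below it in the 4 to the right (-0.89 to -0.35), as are UCN, AVP, OXT and POMC, while SIM1, POU3F2, CRHBP, CRHR1 and CRHR2 do not part at the line.

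The genes nearest to CRH and TRH in pattern were sought among 13710 named genes with a mean of at least 1 CPM. Likeness was the root mean square difference, over the 8 pools, between log2 CPM values centred on each gene's mean. ZNF581, MISP3 and HMG20B were nearest to CRH, at 0.18, 0.18 and 0.19, beside a root mean square deviation of 0.59 of CRH from its own mean. ZNF581 was at 5.81, 7.81, 3.01 and 2.82 CPM in food-restricted pools 1 to 4 and at 3.34, 3.79, 7.40 and 6.79 CPM in well-fed pools 1 to 4. SART1, NPHP4 and WDR6 were nearest to TRH, at 0.07, 0.08 and 0.08, beside 0.31 for TRH itself. SART1 had its highest value, 107 CPM, in food-restricted pool 2 and its lowest, 51.4 CPM, in food-restricted pool 3, the same pools as TRH. None of these 6 is a peptide gene. WDR6 overlapped between the sides, at 350 CPM in food-restricted pool 1 (below 0) and 374 CPM in food-restricted pool 4 (above 0). That the others parted the pools by side follows from how they were chosen.

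Around the 7 genes, 66 genes were listed by their part in the systems, of which 65 had a row and 64 were tested. PCSK2 was not analysed here. None of the 64 passed over all genes (edgeR quasi-likelihood), and 28 lay above and 36 below 0, with a median log2 fold change of -0.03. Of the 64, 4 (6.25%) had an unadjusted edgeR p under 0.05, beside 309 (1.7%) of all tested genes. The lists were chosen with earlier results of these data known, so these shares are no test of the lists.

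Among the 7 tested enzymes that make or degrade TRH, 0 passed, with 3 above and 4 below 0 and a median of -0.03. PCSK1, the convertase that cuts pro-TRH, was at 301 ± 29.3 against 364 ± 27.3 CPM (SD, n = 4 each), and its log2 fold change was -0.28 (SE 0.10). Food-restricted pool 3, at 344 CPM, was above the other food-restricted pools (285 to 287 CPM). QPCT, which closes the pyroglutamyl end of TRH, was at -0.16 (SE 0.13), and PGPEP1, which removes that end, at 0.14 (SE 0.18). TRHDE, the ectoenzyme of tanycytes that degrades TRH, was at 5.22 to 9.50 CPM with food restriction and 6.53 to 7.87 CPM without.

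Regulators of the TRH gene and of its thyroid hormone feedback gave 0 calls among 14 tested, with 6 above and 8 below 0 (median -0.08). DIO2, the deiodinase by which tanycytes make active thyroid hormone, was at 57.0, 53.4, 82.6 and 55.2 CPM in food-restricted pools 1 to 4 and at 101, 111, 76.2 and 85.6 CPM in well-fed pools 1 to 4. Only food-restricted pool 3 reached into the range of the well-fed pools. The log2 fold change of DIO2 was -0.59 (SE 0.17), with an exact two-sided permutation p of 0.0571 on log2 CPM. SIM1 was at 0.39 (SE 0.25). The 9 tested genes of TRH receptor signalling had 3 above and 6 below 0 (median -0.05), with RGS4 at -0.24 (SE 0.19), PLCB1 at 0.18 (SE 0.19) and GNAQ at 0.15 (SE 0.17).

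Regulators of the CRH gene and of glucocorticoid feedback gave 0 calls among 14 tested, with 7 above and 7 below 0 (median 0.01). The groups did not overlap for 2 of these 14, beside 1.6% of all tested genes. FKBP5, which glucocorticoids induce and which restrains their receptor, was at 58.6, 53.2, 73.8 and 72.1 CPM in food-restricted pools 1 to 4 and at 92.8, 112, 99.7 and 100 CPM in well-fed pools 1 to 4. Its log2 fold change was -0.65 (SE 0.13), with an edgeR adjusted p of 1. With PC1 side as a block, a side taken from these same libraries, the edgeR adjusted p was 0.0487. That was the lowest of its alternatives, which reached 1. CREM, a regulator of cyclic AMP responses that can shut off the CRH gene, was at 49.1, 43.4, 52.3 and 43.9 CPM with food restriction and at 65.1, 69.9, 56.8 and 65.5 CPM in well-fed pools, a log2 fold change of -0.45 (SE 0.11). For each of these 2 genes the exact two-sided permutation p was 0.0286, the smallest possible. POU3F2 was at 0.17 (SE 0.15). CRH itself overlapped between the same groups, as given above.

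The 14 tested genes of CRH receptor signalling had 7 above and 7 below 0 (median -0.02), with ADCY6, an adenylyl cyclase, at -0.25 (SE 0.15), PRKACA, a catalytic subunit of protein kinase A, at -0.26 (SE 0.16) and ARRB2, an arrestin, at -0.18 (SE 0.11). ARRB2 was the 1 gene of these 14 whose groups did not overlap, beside the same 1.6%. Without well-fed pool 4 that median was -0.11. UCN and UCN2 had a mean of under 1 CPM in each group, with log2 fold changes of 0.14 (SE 1.20) and -0.29 (SE 0.86). Of the 5 tested genes listed as pituitary targets, 2 lay above and 3 below 0 (median -0.03). Which cells gave their reads was not tested, and POMC is also on the arcuate list. TSHB, the thyrotropin subunit made in the pars tuberalis and pituitary, was at 9.42 ± 4.71 against 13.6 ± 4.37 CPM (SD, n = 4 each), PRL, prolactin, at 89.4 ± 34.4 against 74.7 ± 30.4 CPM, and TBX19, a factor of corticotrophs, at 1.35 ± 0.419 against 1.28 ± 0.440 CPM.

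**Figure D4:**
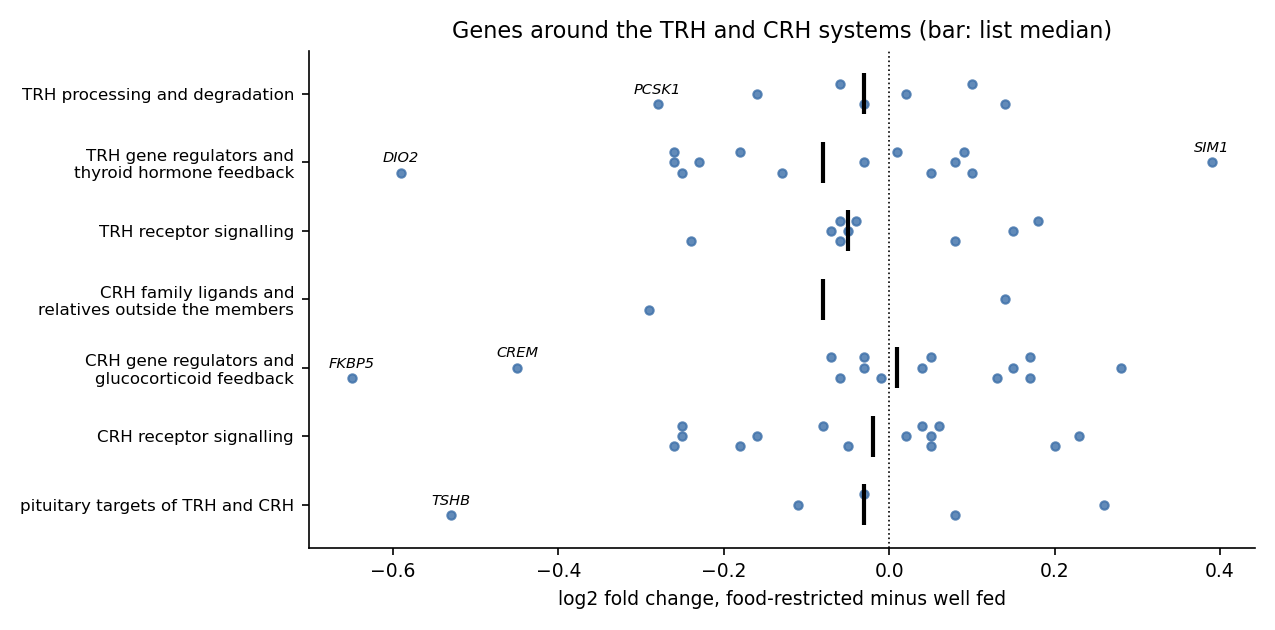
Log2 fold change (x axis, food-restricted minus well fed) of the 64 tested genes in 7 lists (rows), with 1 point per gene and list and a bar at the list median. The medians lie between -0.08 and 0.01, and FKBP5, DIO2, TSHB and CREM stand farthest below 0.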

How the data were processed

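RNA was sequenced from 8 pools of ewe mediobasal hypothalamus, from stranded mRNA libraries per the labels' protocols. The authors deposited unnormalized read counts for each gene. The submitters' processing notes name featureCounts 2.0.0, TopHat2 2.1.1, SAMtools 1.9, Bowtie2 2.3.5.1, FastQC and bcl2fastq 2.20, in no stated order. Genome build and strand setting were not given in the sources used here, so overlapping genes are uncertain and no coordinates are printed. Transcript lengths were not used, and levels are not compared between genes. Names of 471 LOC rows came from RefSeq (ARS-UI_Ramb_v3.0), in which 28100 IDs (83.6%) were found.

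Genes were kept by filterByExpr (minimum count 10, minimum total 15), scaled by TMM and tested in R 4.3.3 with edgeR 4.0.16 (quasi-likelihood, no covariate, Benjamini-Hochberg over 18193 genes, threshold 0.05). The procedure was also run on simulated counts, which lacked the PC1 split and so do not measure its errors in these pools. Log2 CPM used a prior count of 2. The alternatives were DESeq2 1.42.0, voom (limma 3.58.1), other scalings and filters, blocks and pools left out. Counts of pools of 1 group differed beyond sampling noise, with a chi-square of 23.9 to 160 per degree of freedom. The members and lists were chosen with earlier results of these data known. The rule for names took all members, the 3 list genes with the smallest p in each pathway list and the 3 nearest genes; TRHDE, SST and the other peptide and marker genes were added after their values were seen. A gene that the rule names is not reported here. Each marker list was summed.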

Additional observations from a re-analysis of the deposited data

Results flagged for a closer look

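In 102 groups of 4 pools (51 genes), the highest or lowest pool stood apart from the others in 4, where chance gives about 1 in 20. TRHR in food-restricted pool 4 was at 0.213 CPM, with the other 3 food-restricted pools at 0. PCSK1 in food-restricted pool 3 was at 344 CPM, against at most 287 CPM in the other food-restricted pools. DIO2 in the same pool was at 82.6 CPM, against at most 57.0 CPM. AGRP in food-restricted pool 1 was at 193 CPM, against at most 146 CPM in the other food-restricted pools.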

How the results depend on the processing

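The 5 tested members gave 0 calls under every alternative run, and none of their log2 fold changes changed sign under the 9 that kept all pools. With 1 pool left out, the ranges were -0.12 to 0.27 for TRH, -0.31 to 0.19 for CRH, -0.33 to -0.09 for CRHBP, -0.38 to -0.11 for CRHR1 and -0.41 to 0.17 for CRHR2. TRH was below 0 without food-restricted pool 2 (-0.12). CRH was above 0 when food-restricted pool 3 (0.01), food-restricted pool 4 (0.12) or well-fed pool 3 (0.19) was left out, and CRHR2 when food-restricted pool 3 (0.17) or well-fed pool 4 (0.01) was left out. Among list genes these ranges crossed 0 for UCN (-0.47 to 0.81), UCN2 (-0.81 to 0.14), TBX19 (-0.10 to 0.29), GNAQ (-0.01 to 0.30) and PRL (-0.02 to 0.44), and limma voom put UCN at -0.14, UCN2 at -1.29 (from -0.29) and their median at -0.72 (from -0.08). Over all genes edgeR called 1, the arcuate marker AGRP (log2 fold change 1.61, edgeR adjusted p = 0.0296), and 0 with any 1 pool left out (range 0 to 0). With PC1 side, which was taken from these same libraries, as a block, edgeR called 6, FKBP5 (-0.66) being the 1 gene of the pathway lists among them. DESeq2 called 4. The cause was not tested. The replicate numbers did not pair the pools: deviations of same-numbered pools correlated at -0.42 to -0.21 over genes. With the replicate number as a block edgeR called 0 genes and 0 members. The difference in log2 CPM between pools below and above 0 was 1.03 to 1.19 for CRH and 0.35 to 0.56 for TRH with 1 pool left out, alternatives chosen after seeing the data. Likeness was computed with 1 scaling. UCN and UCN2 gave no value at 1 CPM in 4 pools. Counts under 3 per library set the limit for TRHR and UCN3.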
